A study of Mus musculus with 2 samples.

Results

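The stellate cell and matrix genes described here are 10 genes taken by symbol from a table of 15348 genes, and all 10 were listed. They are the fibrillar collagen genes Col1a1, Col1a2 and Col3a1, the small leucine-rich proteoglycan genes Dcn, Bgn and Lum, the contractile and filament genes Acta2 and Des, the receptor gene Pdgfrb and the protease inhibitor gene Timp1. Liver RNA came from female NOG-TKm30 mice aged 16 weeks, an immunodeficient NOG line in which mutant clone 30 of the herpes simplex thymidine kinase cDNA (HSVtk) is driven by transthyretin gene control elements. Controls and treated mice both carry this transgene, and transthyretin is a hepatocyte protein. The OTD group received ortho-toluidine, an aromatic amine, at 0.6% for 1 week and at 0.3% for the following 3 weeks, and the control group received 0%. Each group was sequenced as 1 pool, of 3 mice for the controls and of 5 for OTD, so neither group had replicates and the spread between mice was not measured. One label names C57BL mice where the others name NOG-TKm30, and the word Wild in the column names is not explained.

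Hepatic stellate cells lie between the sinusoidal endothelium and the hepatocytes, store retinoids and make much of the liver's interstitial matrix. In fibrosis they are known to turn into myofibroblasts, which make alpha-smooth muscle actin, type I and type III collagen and the inhibitor TIMP1, and platelet-derived growth factor acting through its beta receptor drives their division. Decorin, biglycan and lumican bind collagen fibrils or growth factors and are also made in resting liver by stellate cells and portal fibroblasts.

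The sequences just before the start sites of Col3a1 and Bgn are shown, as a collagen gene and a proteoglycan gene. Col3a1 had the highest ratio of the 10 genes. Bgn, with a ratio near 1 at a high read count, was the only proteoglycan gene of the 10 with a promoter entry. Each sequence is the 250 bases before the RefSeq start on the plus strand of GRCm38.p6, from chr1:45311288-45311537 for Col3a1 and chrX:73483351-73483600 for Bgn, and capitals mark every match to a searched motif on either strand.
Col3a1: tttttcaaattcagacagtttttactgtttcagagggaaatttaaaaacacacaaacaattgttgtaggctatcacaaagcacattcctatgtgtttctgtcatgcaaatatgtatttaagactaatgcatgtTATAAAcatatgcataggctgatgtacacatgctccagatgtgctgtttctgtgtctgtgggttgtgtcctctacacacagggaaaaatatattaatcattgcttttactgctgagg
Bgn: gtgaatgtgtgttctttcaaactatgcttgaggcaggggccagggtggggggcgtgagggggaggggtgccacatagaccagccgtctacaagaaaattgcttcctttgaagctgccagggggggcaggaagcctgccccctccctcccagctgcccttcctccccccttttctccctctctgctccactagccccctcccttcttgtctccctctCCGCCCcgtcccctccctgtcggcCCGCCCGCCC
G and C made up 35.2% of the Col3a1 window and 64.4% of the Bgn window. The TATA motif searched was TATAAA, which 12.4% of all 32851 windows of this length hold on either strand, and the Col3a1 window held it once, at -117 counted back from the start. The GC box searched was GGGCGG, held by 32.7% of the windows, and the Bgn window held it on the other strand at -34, -10 and -6, where the last 2 matches overlap. Neither window held the other's motif. A match describes letters and does not show a bound factor.

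The deposited levels behave as read counts per library total (CPM) with 1 further factor for each library, and are called scaled CPM below, and each value was a whole multiple of 1 read. The control library held 13569189 reads and the OTD library 14685193, and the share of reads on the 10 genes was 0.0422% in control and 0.0421% in OTD. The ribosomal RNA precursor Rn45s took 1.47% and 2.66%. The hepatocyte marker Alb stood at 81661 and 69694 scaled CPM, the highest level of the markers examined. A ratio below is the OTD level over the control level, with a 95% exact Clopper-Pearson interval on the split of the reads, and log2 ratios use a pseudocount of 1. The intervals cover counting error only, not differences between mice or library preparations, and no p-value can be given. In RNA of whole liver, fewer cells of a type and less RNA per cell cannot be told apart.

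Col3a1, which encodes the chain of type III collagen, stood higher in the OTD pool with a ratio of 1.26, while Dcn (decorin), at 0.899, and Lum (lumican), at 0.718, stood lower. The other collagen genes, Col1a1 and Col1a2, and the third proteoglycan gene, Bgn, had counting intervals that held 1, as did the remaining genes, and none of the 10 differed by 1.5-fold. Acta2 and Des were low in both pools, and Timp1 was represented by 1 read in each. The count of genes at least 2-fold apart was therefore 0 of 10, where 0.421% of the 7602 genes with a mean level of at least 10 were at least 2-fold apart, and 0.456% of all 15348 genes. The counting interval left out 1 for 3 of the 10 genes. Among the 5 with a mean level of at least 10 it did so for 2, against 38.2% of the 7602 genes, so that share is near the background. The other was Lum, whose mean level is lower, and 14.6% of the 4354 genes from 1 to under 10 had such an interval.

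**Figure D1:**
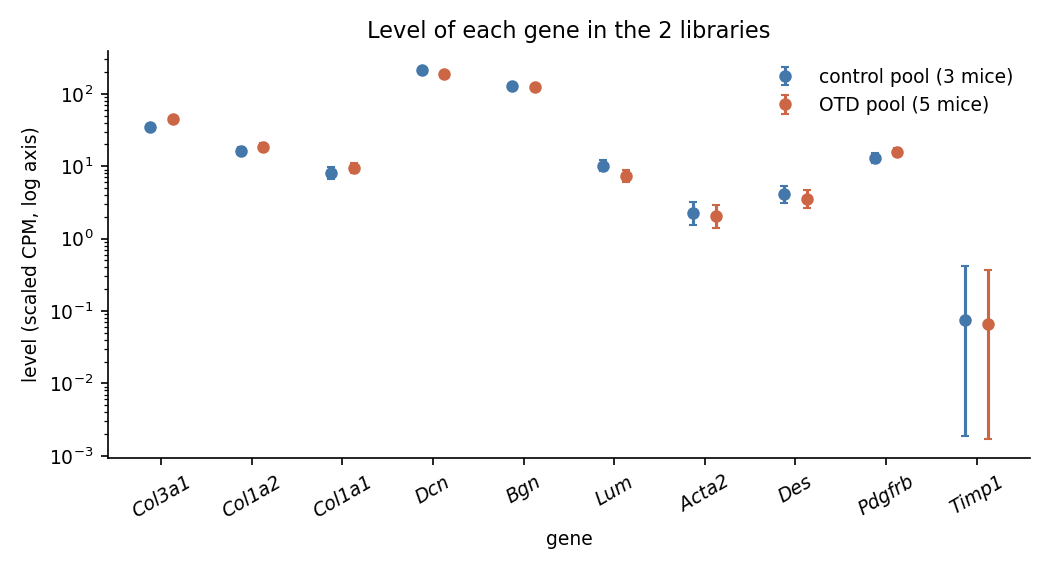
Level of each of the 10 genes in scaled CPM on a log axis, with the control pool in blue and the OTD pool in orange. Bars are 95% exact Poisson intervals on the reads (counting error only), and Dcn and Bgn stand highest, above 100 in both pools, while Timp1 rests on 1 read in each.

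The fibrillar collagens form the rope-like fibrils of interstitial matrix. Col3a1 stood at 35.2 scaled CPM in the control pool (469 reads) and 44.6 in the OTD pool (667 reads), a ratio of 1.26 (1.12 to 1.43). Its log2 ratio of 0.33 lay above those of 93.2% of the 7602 genes. At the deposited scaling it was the only one of the 10 genes with an interval above 1, which was so for 18.6% of the 7602 genes. Type I collagen, the main collagen of scar tissue, is built from Col1a1 and Col1a2 chains. Col1a2 stood at 16.3 in the control pool (217 reads) and 18.3 in the OTD pool (274 reads), a ratio of 1.12 (0.936 to 1.35). Col1a1 stood at 8.19 (109 reads) and 9.55 (143 reads), a ratio of 1.17 (0.903 to 1.51). For both type I genes the difference was not detectable at this depth.

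Added together, the 3 collagen genes had 795 reads in the control pool and 1084 in the OTD pool, and a ratio of 1.21 (1.11 to 1.33). No difference in the mixture of the 3 was detectable at this depth, and the intervals leave room for a difference of about the size of the summed one or more. There were 4.30 Col3a1 reads per Col1a1 read in the control pool and 4.66 in the OTD pool, a ratio of ratios of 1.08 (0.814 to 1.44). Col3a1 to Col1a2 read ratios were 2.16 and 2.43, a ratio of ratios of 1.13 (0.904 to 1.40). Col1a1 to Col1a2 read ratios were 0.502 and 0.522, a ratio of ratios of 1.04 (0.756 to 1.43). These intervals come from the exact conditional odds ratio of the reads and again cover counting error only.

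Dcn and Bgn had the highest levels of the 10 genes, and the third proteoglycan gene, Lum, stood far lower. Dcn stood at 210.5 scaled CPM in the control pool (2802 reads) and 189.2 in the OTD pool (2833 reads), a ratio of 0.899 (0.853 to 0.947). Bgn, which encodes biglycan, stood at 130.05 (1731 reads) and 123.2 (1844 reads), a ratio of 0.947 (0.887 to 1.01). Lum stood at 10.1 (135 reads) and 7.28 (109 reads), a ratio of 0.718 (0.553 to 0.931), which was the lowest of the 10. Of the 7602 genes, 2.35% had a log2 ratio below its -0.43. Dcn had an interval below 1, as did 19.6% of the 7602 genes. Lum also had one, as did 4.71% of the 4354 genes with a mean level from 1 to under 10. With a 99% interval that of Lum reached 1.01. The Bgn difference was not detectable at this depth, and its ratio was 0.996 at equal library totals without Rn45s.

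The mean level of Lum, 8.71, and that of Col1a1, 8.87, were under 10, so the background of 7602 genes does not hold them. Of the 10 genes, 5 had a mean level of at least 10 (Dcn, Bgn, Col3a1, Col1a2 and Pdgfrb) and 5 did not. Among the 4354 genes with a mean level from 1 to under 10, 14.6% had an interval that left out 1.

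**Figure D2:**
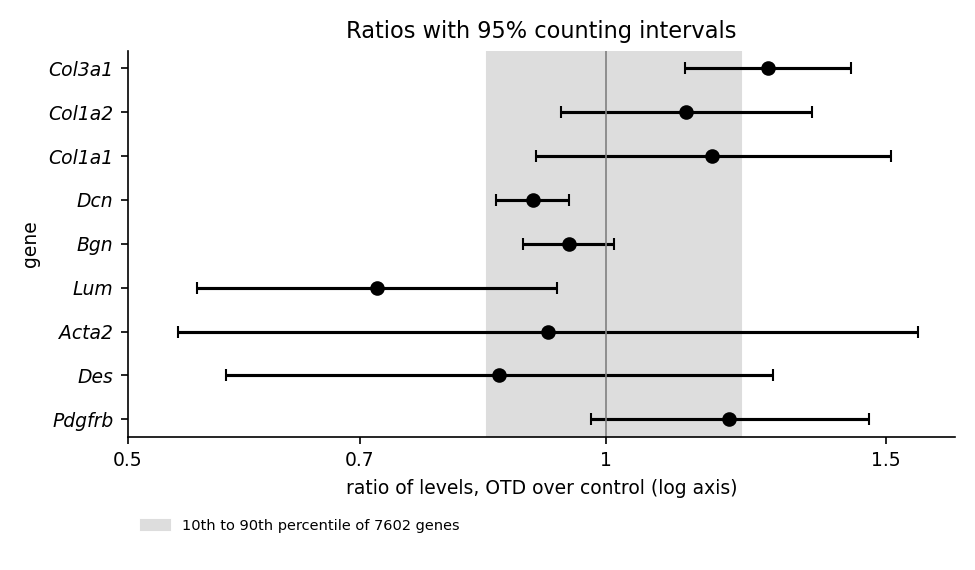
Ratio of the OTD level over the control level on a log axis for 9 of the genes (Timp1 is left out), with 95% counting intervals as bars. The grey band spans the 10th to the 90th percentile of the ratios of the 7602 genes with a mean level of at least 10, and Col3a1 (1.26) and Lum (0.718) have points outside it.

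Collagen and proteoglycan reads of the same library can be set against each other without any scaling. The 3 collagen genes had 0.170 reads for each read of the 3 proteoglycan genes in the control pool and 0.226 in the OTD pool, a ratio of ratios of 1.33 (1.20 to 1.47). For Col3a1 over Dcn the read ratios were 0.167 and 0.235, a ratio of ratios of 1.41 (1.23 to 1.60). For Col3a1 over Bgn they were 0.271 and 0.362, which gave 1.34 (1.16 to 1.53). Lum and Col3a1 lay furthest apart, with 3.47 Col3a1 reads per Lum read in the control pool and 6.12 in the OTD pool, and a ratio of ratios of 1.76 (1.32 to 2.35). Within the proteoglycans, Dcn and Bgn lay close, with 1.62 and 1.54 Dcn reads per Bgn read and a ratio of ratios of 0.949 (0.872 to 1.03). For Lum over Bgn the ratio of ratios was 0.758 (0.578 to 0.992), with an upper bound only just under 1. That value is about as far from 1 as that of Col3a1 over Bgn. For Lum over Dcn it was 0.799 (0.611 to 1.04), an interval that held 1. The pairs were set up by role after the values were known, so they describe these libraries.

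Acta2, the alpha-smooth muscle actin gene that marks myofibroblasts and vascular smooth muscle, stood at 2.25 scaled CPM in the control pool (30 reads) and 2.07 in the OTD pool (31 reads). Its ratio was 0.919 (0.538 to 1.57). Des, which encodes the intermediate filament desmin of stellate and muscle cells, stood at 4.13 (55 reads) and 3.54 (53 reads), a ratio of 0.857 (0.576 to 1.27). Neither difference was detectable at this depth, and the interval of Acta2 reaches beyond 1.5-fold in both directions. An antisense gene, Gm15179, overlaps Des, and 5.81% of the 50-base stretches of the Des transcript occur in transcripts of another gene, so Des reads and antisense reads cannot be told apart where counting ignored strand.

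Pdgfrb, the receptor for PDGF-B on stellate cells and pericytes, stood at 13.1 scaled CPM in the control pool (174 reads) and 15.6 in the OTD pool (234 reads), a ratio of 1.20 (0.979 to 1.46). Its interval held 1 at the deposited scaling and lay above 1 when the libraries were scaled to the same total. Pdgfra, the alpha receptor of portal fibroblasts and stellate cells, stood at 10.97 (146 reads) and 9.55 (143 reads), a ratio of 0.871 (0.687 to 1.10). There were 1.19 Pdgfrb reads per Pdgfra read in the control pool and 1.64 in the OTD pool, a ratio of ratios of 1.37 (1.003 to 1.88).

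Timp1 encodes a secreted inhibitor of matrix metalloproteinases. It had 1 read in the control pool and 1 in the OTD pool, below the 3 reads that correspond to 0.225 and 0.200 scaled CPM, so no fold is given. Its upper Poisson bounds were 0.419 and 0.372 scaled CPM. The Syn1 gene overlaps it on the opposite strand and had 15 and 10 reads.

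Levels can be compared between genes only per length, here as scaled CPM per kilobase of the principal GENCODE M21 transcript. In the control pool Dcn stood at 119.7 per kilobase, Bgn at 53.8 and Col3a1 at 6.33. Lum stood at 4.14, Col1a2 at 3.05, Pdgfrb at 2.42, Col1a1 at 1.38, Des at 1.36, Acta2 at 1.11 and Timp1 at 0.0851. In the OTD pool the order was the same except that Col1a2 (3.42) stood above Lum (2.97). The counting intervals of neighbours overlapped from Lum to Col1a2 to Pdgfrb, and among Col1a1, Des and Acta2, in both pools. Col1a2 exceeded Col1a1 per kilobase in both pools, with control intervals of 2.66 to 3.48 and 1.13 to 1.67, although type I collagen holds more alpha 1 than alpha 2 chains. The lead of Dcn over Bgn depends on the transcript chosen. With the longest transcript of each gene (4692 bases for Dcn, against 1758) the control values were 44.9 and 48.8.

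In GRCm38, Col3a1 lies on chromosome 1 at 45311538 to 45349706, Col1a2 on chromosome 6 at 4504814 to 4541544 and Col1a1 on chromosome 11 at 94936224 to 94953042. Dcn lies on chromosome 10 at 97479609 to 97518143, and Lum lies on the same strand of that chromosome at 97565128 to 97572703. Bgn lies on chromosome X at 73483602 to 73495933. All 10 are annotated as protein-coding. No 50-base stretch of the Col1a1, Col1a2, Dcn, Lum, Pdgfrb or Timp1 transcripts was found in transcripts of another gene. For Col3a1 the share was 1.67%, all of it in Gm47302, a microRNA gene model inside it.

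**Figure D3:**
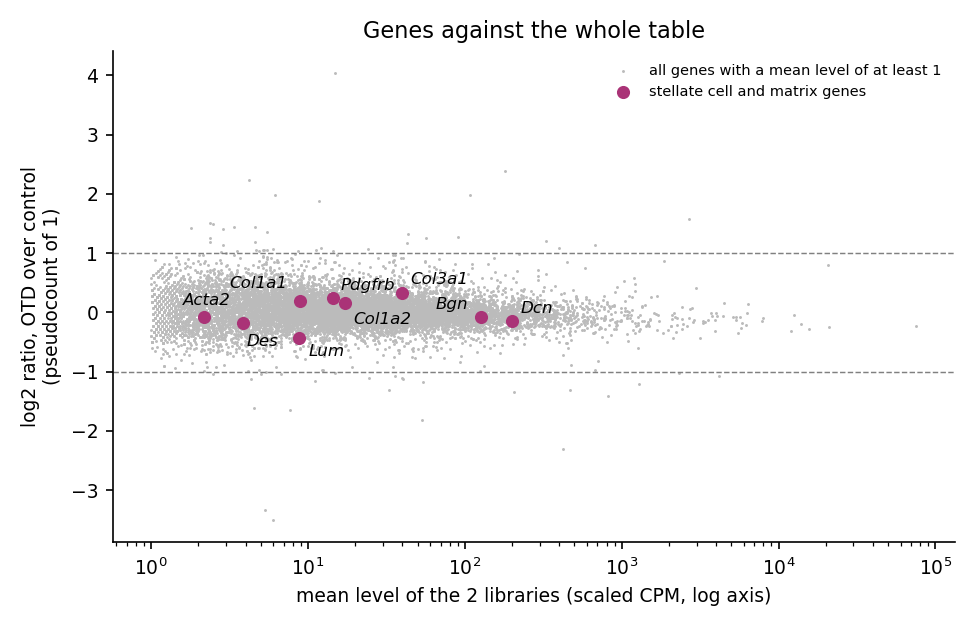
Log2 ratio of OTD over control (pseudocount of 1) against the mean level of the 2 libraries on a log axis, with all genes of mean level at least 1 in grey and 9 of the 10 genes in purple (Timp1 is below the axis). Dashed lines mark 2-fold, and the labelled genes lie between a log2 ratio of -0.43 (Lum) and 0.33 (Col3a1).

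Across the 10 genes 4 log2 ratios were above 0 and 6 below, and their median was -0.044, beside a median of -0.0063 and 48.4% above 0 for the 7602 genes. The summed level of the 10 genes had a ratio of 0.962 (0.927 to 0.997), which Dcn weighs most, and without Dcn it was 1.02 (0.972 to 1.07). The sign of each gene's log2 ratio was the same under each of the 4 other scalings. The summed ratio of all 10 became 0.999 at equal library totals, and of these scalings only equal totals without Rn45s took it above 1, to 1.01. Of all 7602 genes, 1413 had an interval above 1 and 1492 below, so 48.6% of these calls were higher. That share was 66.7% with equal library totals and 71.6% with equal totals that leave out Rn45s, and those scalings moved log2 ratios by 0.056 and 0.073.

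Lists of other matrix genes and of cell type markers held 191 genes of the table, none of them among the 10, and 0 of the 191 had a log2 ratio of 1 or more in either direction. That scale shrinks low genes, and some with under 50 reads in each pool had ratios past 2-fold. Of the 100 list genes with a mean level of at least 10, 17 had an interval above 1 and 29 below, where 18.6% of the 7602 genes were above and 19.6% below. Among the 4354 genes from 1 to under 10 the shares were 9.85% above and 4.71% below, and the counts of each list that follow, over its genes at any level, are to be read beside these shares. Of 10 further interstitial collagen genes, 1 had an interval above 1 and 0 below, and the median log2 ratio was 0.074. That gene was Col14a1, a fibril-associated collagen, at 98.6 and 111.6 scaled CPM with a ratio of 1.13 (1.05 to 1.22). Col5a1, a chain of the fibril-nucleating type V collagen, had a ratio of 1.08 (0.904 to 1.28) and Col6a3 of 0.924 (0.748 to 1.14). Of 18 basement membrane genes, 3 had an interval above 1 and 2 below, with a median of 0.041. Col4a2, a chain of type IV collagen, had a ratio of 1.19 (1.06 to 1.34) and Nid2 of 1.18 (0.952 to 1.46). Col18a1, which hepatocytes also express, had 0.866 (0.849 to 0.883).

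Of 22 matrix glycoprotein and proteoglycan genes, 1 had an interval above 1 and 2 below, and the median log2 ratio of -0.031 turned positive when the libraries were scaled to the same total. Prelp, a leucine-rich proteoglycan related to lumican, stood at 52.0 and 65.8, a ratio of 1.27 (1.15 to 1.40). Prelp and Lum thus lay on opposite sides of 1. The hepatocyte-made Fn1 (fibronectin) and Vtn (vitronectin) had ratios of 0.897 (0.886 to 0.908) and 0.848 (0.835 to 0.862).

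Collagen chains are folded, hydroxylated and crosslinked by a set of enzymes, of which 26 were listed. Of these, 1 had an interval above 1 and 4 below, with a median log2 ratio of -0.077, and at equal library totals 2 were above and 1 below. P4hb, the beta subunit of prolyl 4-hydroxylase and the most abundant, stood at 1112 in both pools, a ratio of 1.00 (0.978 to 1.02). Its partner P4ha1 had 0.851 (0.747 to 0.968) and P3h1 0.859 (0.714 to 1.03). The crosslinking transglutaminase Tgm2 had 1.27 (1.18 to 1.36). Among 21 proteases and inhibitors 3 intervals lay above 1 and 2 below. The metalloproteinase gene Mmp19 stood at 77.5 and 112.8, a ratio of 1.45 (1.34 to 1.57), and Adamts1 had 1.27 (1.06 to 1.53). Timp2, a relative of Timp1, had 0.792 (0.693 to 0.906), and Plg, the plasminogen gene of hepatocytes, 0.905 (0.893 to 0.917).

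TGF-beta is the main known inducer of collagen genes in stellate cells. Of 21 genes of its pathway, 3 had an interval above 1 and 4 below, and the median log2 ratio of 0.058 became -0.0048 over the 14 with a mean level of at least 10. At equal library totals 5 were above 1 and 3 below, and without Rn45s 8 and 3. Among the inhibitors, Smad7 stood at 42.4 and 28.9, a ratio of 0.681 (0.599 to 0.773), and Skil at 49.7 and 34.5, a ratio of 0.693 (0.616 to 0.779). Ski, a relative of Skil, went the other way at 1.13 (1.03 to 1.24), and Bambi had 0.776 (0.498 to 1.20). The receptor gene Tgfbr1 had 0.734 (0.650 to 0.828) and the receptor gene Tgfbr2 1.19 (1.03 to 1.37), and the co-receptor gene Eng 1.07 (0.988 to 1.16). Of 10 PDGF pathway genes, 3 had an interval above 1 and 2 below, with a median of 0.045. Src had a ratio of 1.28 (1.08 to 1.53), Stat3 1.17 (1.10 to 1.25) and Pik3r1 0.879 (0.813 to 0.950). These last genes are expressed in many cell types.

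**Figure D4:**
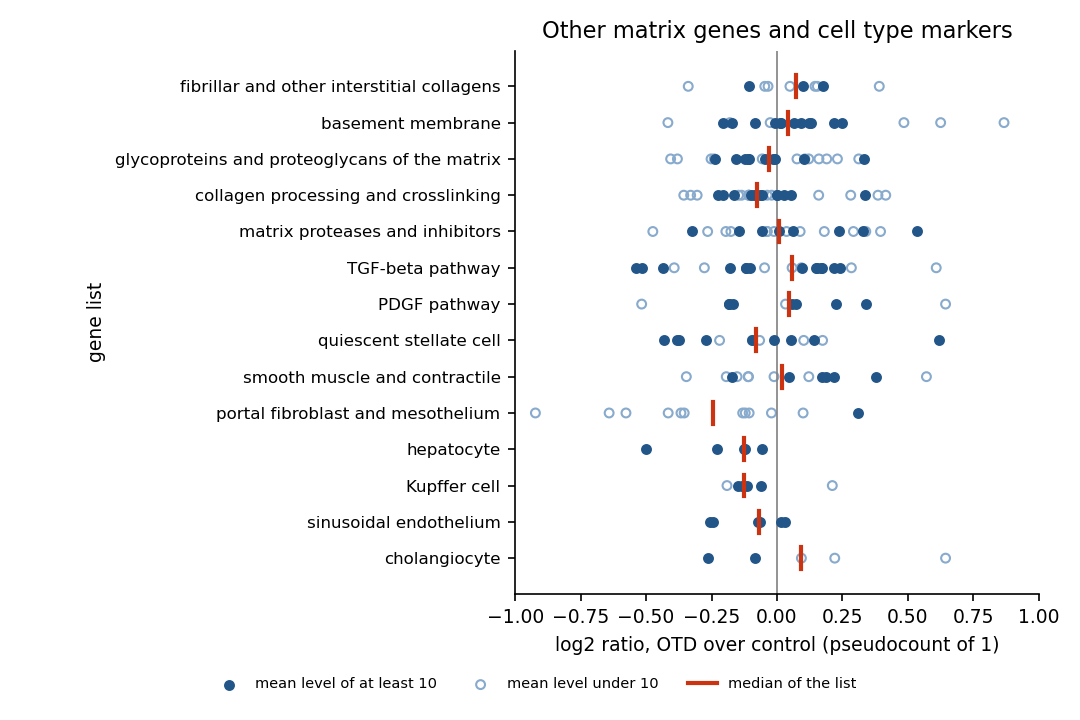
Log2 ratio of OTD over control (pseudocount of 1) for each gene of the 14 lists, with filled points for a mean level of at least 10, open points for lower levels and a red bar at the median of each list. All points lie between -1 and 1, and the list medians run from -0.24 (portal fibroblast and mesothelium) to 0.093 (cholangiocyte), both of which change sign when only genes with a mean level of at least 10 are kept.

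Markers of stellate cells were read in both pools, with a summed level of 1057 in control and 899.3 in OTD, much of it Plin2 (527.3 and 404.9), a lipid droplet protein that hepatocytes also make. Without Plin2 the sum at the deposited scaling was 529.2 and 494.4, a ratio of 0.934 (0.904 to 0.965), and this sum was not examined at other scalings. Gfap had 4 and 7 reads. Reln, a secreted glycoprotein of stellate cells, stood at 245.2 and 243.1 scaled CPM, a ratio of 0.992 (0.946 to 1.04). Of 14 stellate cell genes, 1 had an interval above 1 and 4 below, and the median log2 ratio was -0.080, or -0.033 at equal library totals. All 5 were among the 9 genes with a mean level of at least 10, where the shares over all genes were 18.6% above and 19.6% below. Vipr1 had a ratio of 0.737 (0.674 to 0.807) and Plin2 0.768 (0.742 to 0.795). Lrat, the retinol-esterifying enzyme of stellate cells, was named after its values were seen and had 0.764 (0.664 to 0.880). Colec11, at 1.04 (0.922 to 1.17), Hgf and Pth1r had intervals that held 1. Whether the share of stellate cells differed between the pools was not tested.

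Of 14 smooth muscle and contractile genes, 5 had an interval above 1 and 0 below, the median log2 ratio was 0.018 and the summed level 525.5 and 582.2. Of the 6 with a mean level of at least 10, 4 were above 1, beside 18.6% of all such genes, and their median was 0.18. Cald1 (caldesmon) stood at 254.8 and 290.6, a ratio of 1.14 (1.09 to 1.19), Tpm1 (tropomyosin) had 1.32 (1.12 to 1.54) and Vcl (vinculin) 1.17 (1.05 to 1.30). These genes are also expressed outside muscle. Flna, at 1.13 (1.02 to 1.25), and Myl9 were the others above 1. None of the 5 is among the narrower smooth muscle markers, which are Myh11, Cnn1, Actg2, Tagln, Smtn, Lmod1, Mylk, Tpm2 and Des. The intervals of those markers all held 1. Most of them had ratios below 1, among them Lmod1 with 7 and 3 reads, while Mylk and Tpm2 had ratios above 1. Smtn at 0.861 (0.667 to 1.11), Tagln at 0.907 (0.602 to 1.37) and Myh11 at 0.868 (0.550 to 1.37) had intervals that held 1, as did Vim at 0.882 (0.737 to 1.06). Myl9, with 16 and 34 reads, had 1.89 (1.01 to 3.67). Mylk had 1.03 (0.965 to 1.11) and Tpm2 1.19 (0.526 to 2.75), with intervals that held 1. The defining smooth muscle genes Cnn1 and Actg2 had 2 reads or fewer in each pool. Of 12 portal fibroblast and mesothelium genes, 1 had an interval above 1 (Gas6, 1.24, from 1.14 to 1.36) and 3 below, and the median of -0.24 became 0.31 with Gas6 as the single gene at a mean level of at least 10. The summed level of that list was 94.8 and 101.1, most of it Gas6.

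Among other liver cells, all 5 hepatocyte markers (summed level 96846 in control and 83624 in OTD) had intervals below 1 at the deposited scaling, as did 19.6% of the 7602 genes, with a median log2 ratio of -0.13 that weakened to -0.054 when Rn45s was left out, and Hnf4a had a ratio of 0.707 (0.688 to 0.725). At equal library totals 4 of the 5 stayed below 1, and Ttr, at 0.961 (0.950 to 0.972) as deposited, became 0.999 (0.988 to 1.01). Of 7 Kupffer cell markers (319.2 and 294.8) 2 were below 1 and 0 above, beside 19.6% of all 7602 genes below. These were Clec4f, at 0.924 (0.865 to 0.987), and Cd5l, at 0.900 (0.831 to 0.975), and at equal library totals neither was, while Marco had 1.18 (0.911 to 1.53). Of 6 sinusoidal endothelial markers (436.4 and 414.9) 2 were below 1 and 0 above. Clec4g had 0.842 (0.757 to 0.936) and stayed below 1 at equal totals, with an upper bound of 0.973. Pecam1 had 0.831 (0.711 to 0.972), whose upper bound became 1.01 at equal totals. Of 5 cholangiocyte markers (46.1 and 43.1) 1 was above 1 and 1 below, the former being Krt7, with 10 and 26 reads and a ratio of 2.31 (1.08 to 5.37), and the latter Sox9, at 0.824 (0.682 to 0.996) as deposited and with an upper bound of 1.04 at equal totals. Krt19 and Epcam had 1.27 (0.703 to 2.33) and 1.16 (0.468 to 2.94). The median of this list, 0.093, became -0.17 over the 2 genes with a mean level of at least 10. Their part in the values of the 10 genes was not tested.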

How the data were processed

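Liver RNA of 2 pools (control and OTD) was measured as 1 rRNA-depleted, directional library each, from 200 ng of total RNA, per the labels' protocols. The authors deposited 1 normalized signal per gene and library, derived from read counts. RSEM, Bowtie2, Trimmomatic 0.38, edgeR and mm10 are named per the submitters' processing notes, without a role. Annotation, gene filter and use of strand: not given in the sources used here. Dividing each column by its smallest value above 0 gave whole reads for 100% of values (tolerance 1e-06). With 1 library per group no count test leaves residual degrees of freedom, and no gene was called by one.

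Log2 ratios used a pseudocount of 1 and so understate differences of low genes, and ratios without one carry Clopper-Pearson intervals. The 10 genes and all 14 lists were kept at any level, and the background is the genes with a mean level of at least 10. From each list the most abundant gene and up to 3 genes with a mean level of at least 10 and the largest absolute log2 ratio were the ones to be named, and some of them are not described; 1 stellate cell gene is not reported here. Pdgfra, Reln, Lrat, Gfap, Colec11, Hgf, Pth1r, Cnn1, Actg2, Smtn, Tagln, Myh11, Vim, Ttr, Marco, Krt7, Krt19 and Epcam were chosen for naming once their values were known. So were Myl9, Mylk, Tpm2, Flna, Lmod1, Ski, Bambi and Tgfbr2. The genes and lists were chosen with earlier results of these data known. Symbols of all 10 genes matched GENCODE M21 (GRCm38), and 6 had a RefSeq promoter entry. Computation used scipy 1.17.1, numpy 2.4.6, pandas 2.3.3 and matplotlib 3.10.9 in Python 3.11.15, and the script was tested on simulated data. Alternatives were pseudocounts of 0.5 and 10, 4 scalings, filters at 10, 50 or none, 1.5-fold and a 99% interval.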

Additional observations from a re-analysis of the deposited data

How the results depend on the processing

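With 1 pooled library per group no replicate could be left out and no paired analysis was possible. All 60 values of the 10 genes under other pseudocounts and scalings stayed inside the main counting interval, and 0 genes changed sign. A pseudocount cannot change a sign, and the scalings moved log2 ratios by at most 0.073, less than the reach of most of these intervals. The summed ratio of 0.962 became 0.999 at the same total, 1.01 at the same total without Rn45s, 0.917 with the 2 genes at a mean level of at least 50 and 1.02 without Dcn. The median log2 ratio of -0.044 became 0.16 over the 5 genes with a mean level of at least 10, as fewer genes entered. Intervals off 1 numbered 1 at a mean level of at least 50. Of the 14 lists 7 had a median above 0, and 4 at a mean level of at least 50. Of 125 list medians 8 moved beyond the counting interval of a middle gene of the list, centred on the median. That is not an interval of the median itself. Under some setting 7 lists changed sign. The counts of 16 higher and 16 lower genes at 2-fold became 44 and 26 without a filter, 8 and 9 at a mean level of at least 50, and 115 and 69 at 1.5-fold, and a pseudocount of 10 gave 10 lower. Depth limits Acta2, Des and Timp1 most.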

Other observations

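Some matrix genes with a mean level under 10 lay outside the rule for named genes and are named after their values were seen. Of 60 list genes with a mean level from 1 to under 10, 10 had an interval off 1 (16.7%, beside 14.6% of all such genes), 6 above and 4 below. Col15a1, a collagen of basement membrane zones and capillarized sinusoids, stood at 6.76 scaled CPM in the control pool (90 reads) and 13.2 in the OTD pool (197 reads), a ratio of 1.95 (1.51 to 2.53). Other basement membrane genes differed in opposite directions. Col4a4 had 8 and 22 reads, a ratio of 2.44 (1.05 to 6.35), and Lama5 135 and 110 reads, a ratio of 0.724 (0.558 to 0.939).

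The mesothelial genes Upk3b and Msln and the fibroblast matrix gene Dpt (dermatopontin) had lower levels in the OTD pool. Dpt had 49 and 22 reads, a ratio of 0.399 (0.230 to 0.673). Upk3b had 74 and 48 reads, a ratio of 0.577 (0.392 to 0.841), and Msln 45 and 29 reads, a ratio of 0.573 (0.346 to 0.934). The PDGF ligand gene Pdgfa had 10 and 26 reads, a ratio of 2.31 (1.08 to 5.37), and the TGF-beta binding protein gene Ltbp2 10 and 25 reads, a ratio of 2.22 (1.03 to 5.19).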
